A study of Mus musculus with 16 samples.

Results

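The effect of RANKL on RAW264.7 cells that also received cancer vesicles was measured after 72 h, by comparing cells given vesicles plus RANKL with cells given vesicles alone. The comparison rests on 4 of the 16 RNA libraries of the study, 2 of vesicles plus RANKL and 2 of vesicles alone, chosen by their labels. RAW264.7 is a mouse macrophage line that the labels call an osteoclast precursor. Cells attached for 12 h, then received recombinant mouse RANKL (a GST fusion, 10 ng/mL) together with vesicles of PC3M, a metastatic human prostate cancer line, at 30 µg/mL, or the vesicles alone. Side comparisons below use the same pair of treatments at 48 h, and RANKL alone against the phosphate-buffered saline control (PBS) at 72 h, again with 2 libraries a group. All groups come from this 1 line. Whether the 2 libraries of a group stem from different cultures is not labelled, so the p-values reflect the spread among these samples, possibly a technical one. The series asks what prostate cancer vesicles do to osteoclast differentiation, and this comparison asks what RANKL adds once the vesicles are there.

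RANKL is a membrane-bound or shed cytokine of osteoblasts, osteocytes and T cells. It binds the receptor RANK on macrophage precursors, and TRAF6 and NF-kB signals, together with calcium signals from ITAM-coupled receptors, lead to self-amplifying expression of the transcription factor NFATc1. The precursors then lose macrophage traits, fuse into multinucleated osteoclasts, seal a patch of bone with an actin ring, acidify it with a V-type proton pump and digest its collagen. Extracellular vesicles are small membrane particles that carry protein and RNA between cells.

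Values are given as RPKM, reads scaled to transcript length in kilobases and to library size, recovered from deposited log2 values, and changes as log2 differences of RPKM + 1 with standard errors. Estimated depth was 18.9 M to 19.6 M reads in the 4 libraries, and 3 reads in a transcript of 1 kb correspond to 0.153 to 0.158 RPKM. The share of ribosomal protein genes in the RPKM total was 10.2% to 10.6% in the 4 libraries and 10.4% in RANKL replicate 2 of 72 h, against 7.52% to 8.96% in the other libraries. The comparison thus lies within libraries of 1 kind in this respect, while RANKL against PBS at 72 h does not. Genes of mitochondrial DNA took 26.0% and 25.0% with vesicles plus RANKL, against 22.7% and 19.7% with vesicles alone. A scaling that leaves these genes out is given below, and the part of this difference in single results was not tested. Of the macrophage markers behind the label, 10 of 15 tested were lower with RANKL, against 12.9% of all tested genes, as described below, and others did not pass: Csf1r, the M-CSF receptor, stood at 348 and 310.4 RPKM with vesicles plus RANKL, against 346 and 348 RPKM with vesicles alone, and Cd68 at 1031 and 825 RPKM with vesicles plus RANKL, against 1011 and 805 RPKM with vesicles alone. Of 14 listed epithelial markers 7 and of 12 stromal markers 8 were in the table, and 0 of either reached the filter of 1 RPKM in 2 libraries, with Met highest of the first at 0.252 RPKM and Runx2 highest of the second at 0.867 RPKM. For other blood cells, 3 of 19 listed markers were tested; Itgax rose (log2 change 1.33 ± 0.21), Cd83 (0.19) and S100a8 (-0.47) did not pass, and Elane, Camp and Ngp were at 0 in all 4 libraries.

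RANKL changed the expression of 2278 of 10365 tested genes (22.0%) at a limma adjusted p under 0.05, with 938 higher (9.05%) and 1340 lower (12.9%). The split depends on how libraries are scaled, since quantile normalization gave 1369 higher and 1268 lower. Scaling by median ratios, taken without genes of mitochondrial DNA, gave 1278 and 1180. It kept 2090 of the 2278 calls in the same direction (91.75%). At least 2-fold changes on the log2 scale were called for 180 genes upward (1.74%) and 245 downward (2.36%). Expression of genes did not overlap between the libraries of both groups for 5630 genes (54.3%), so non-overlap by itself separates little with 2 libraries a group. The main fit takes its spread from all 16 libraries. A fit of the 4 libraries alone called 1136 genes and kept 1115 of the 2278 calls in the same direction (48.95%). Of the 2278 calls, 997 (43.8%) held whichever of the 4 libraries was left out. The count was 1245 without replicate 1 and 1523 without replicate 2 of vesicles plus RANKL, against 1944 without replicate 1 and 2282 without replicate 2 of vesicles alone.

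The 12 largest rises were mostly known osteoclast genes. Ctsk, the protease that digests bone collagen, stood at 412 and 249 RPKM with vesicles plus RANKL, against 23 and 8.91 RPKM with vesicles alone. The means lay 20.7-fold apart (log2 change 4.38 ± 0.49, limma adjusted p = 8.29e-05), and the libraries did not overlap, as the rule for the 12 genes required. Acp5, the tartrate-resistant acid phosphatase used as an osteoclast stain, had 663 and 435 RPKM with vesicles plus RANKL, against 41.5 and 34.0 RPKM with vesicles alone (14.6-fold, 3.80 ± 0.26, adjusted p = 4.15e-06). The libraries with vesicles alone were thus far from 0 for this gene, a point taken up below. Mmp9, a gelatinase, had 22.1 and 8.0 RPKM with vesicles plus RANKL, against 0.673 and 0.269 RPKM with vesicles alone (3.31 ± 0.36).

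Genes of cell fusion and of its signals stood high among the rises. Ocstamp, a membrane protein required for osteoclast fusion, had 21.9 and 22.3 RPKM with vesicles plus RANKL, against 0.623 and 0.823 RPKM with vesicles alone (3.75 ± 0.21, adjusted p = 1.76e-06). Its 2 libraries with RANKL were nearly equal, and so were those without. Dcstamp, the related fusion protein, had 22.5 and 19.9 RPKM with vesicles plus RANKL, against 2.18 and 2.38 RPKM with vesicles alone (2.75 ± 0.35). Oscar, a collagen-binding receptor that signals through the Fc receptor gamma chain, had 17.9 and 11.2 RPKM with vesicles plus RANKL, against 0.533 and 0.143 RPKM with vesicles alone (3.52 ± 0.40). Its values with vesicles alone lie near the worth of a few reads. Atp6v0d2, a proton pump subunit also needed for fusion, had 314 and 226 RPKM with vesicles plus RANKL, against 38.1 and 19.5 RPKM with vesicles alone (3.24 ± 0.32), and the sodium-proton exchanger Slc9b2 had 17.9 and 12.0 RPKM with vesicles plus RANKL, against 0.839 and 0.557 RPKM with vesicles alone (3.21 ± 0.27).

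Other rises among the 12 were Rufy4 (3.37 ± 0.22), a RUN and FYVE domain protein of lysosome and autophagy traffic, the chemokine receptor Ccr1 (3.09 ± 0.32) and the endosomal GTPase Rab15 (2.89 ± 0.15). Rufy4 had 15.6 and 10.4 RPKM with vesicles plus RANKL, against 0.467 and 0.204 RPKM with vesicles alone. Ccr1 had 43.6 and 28.3 RPKM with vesicles plus RANKL, against 5.21 and 1.88 RPKM with vesicles alone. Rab15 had 10.7 and 8.46 RPKM with vesicles plus RANKL, against 0.314 and 0.538 RPKM with vesicles alone.

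The 12 largest falls included lysozymes, an oxidase subunit and an antibody receptor of macrophages. Lyz1 and Lyz2 encode lysozymes, and reads may be shared between these close paralogs. Lyz2 had 949 and 719 RPKM with vesicles plus RANKL, against 4466 and 4497 RPKM with vesicles alone (-2.44 ± 0.20, adjusted p = 8.21e-06), and Lyz1 changed by -2.85 ± 0.21. In both genes every library with RANKL lay below every library without, as the same rule required. Cybb, the catalytic subunit of the phagocyte NADPH oxidase, had 15.5 and 11.4 RPKM with vesicles plus RANKL, against 99.5 and 79.7 RPKM with vesicles alone (-2.65 ± 0.32). Fcgr1, the high-affinity receptor for IgG, had 1.81 and 1.65 RPKM with vesicles plus RANKL, against 14.4 and 13.1 RPKM with vesicles alone (-2.43 ± 0.19), and Gpr84, a receptor for medium-chain fatty acids, had 2.37 and 2.05 RPKM with vesicles plus RANKL, against 16.0 and 16.9 RPKM with vesicles alone (-2.45 ± 0.28). The falls of Lgals9, which encodes galectin-9, of the membrane protein gene Pmp22 and of Basp1 were -2.52 ± 0.21, -2.47 ± 0.35 and -2.47 ± 0.40.

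The other 4 falls were genes of stress and metabolism. Atf3, a stress-induced transcription factor, had 2.96 and 1.14 RPKM with vesicles plus RANKL, against 21.8 and 21.7 RPKM with vesicles alone (-2.97 ± 0.49). Selenbp1, a selenium-binding enzyme, had 2.82 and 1.65 RPKM with vesicles plus RANKL, against 30.4 and 18.8 RPKM with vesicles alone (-2.97 ± 0.57); Aldh1l2, a mitochondrial folate enzyme, had 1.26 and 1.16 RPKM with vesicles plus RANKL, against 22.9 and 6.57 RPKM with vesicles alone (-2.61 ± 0.48); and Trib3, a pseudokinase induced by ATF4, had 1.01 and 0.344 RPKM with vesicles plus RANKL, against 12.8 and 4.92 RPKM with vesicles alone (-2.46 ± 0.55). Replicate 1 with vesicles alone was the higher of the pair in the last 3 genes. Trib3 was the single one of the 24 genes whose call was lost in an alternative, with adjusted p = 0.0602 without that library and 0.0558 without replicate 2 of vesicles plus RANKL. At 48 h the same 3 genes stood low with vesicles alone, at 1.15 and 1.25 RPKM for Selenbp1, 1.06 and 0.690 RPKM for Aldh1l2 and 0.320 and 0.226 RPKM for Trib3.

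**Figure D1:**
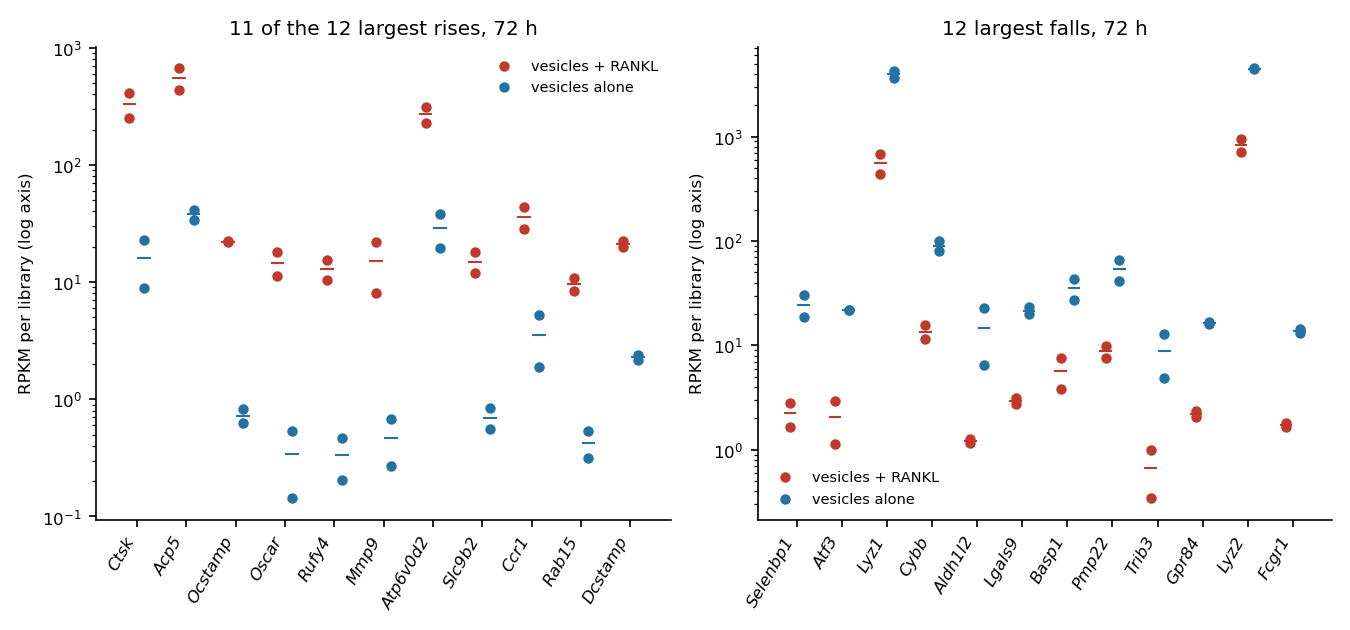
RPKM per library (log axis) of 11 of the 12 genes with the largest rises (left) and the 12 with the largest falls (right), with vesicles plus RANKL (red, left of each pair) and vesicles alone (blue); points are the 2 libraries and dashes their means. The libraries of both treatments do not overlap in any of the 23 genes, by the rule that chose them, and Acp5, Ctsk and Atp6v0d2 already reach 8.91 RPKM or more with vesicles alone.

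The receptor and its direct signal proteins moved little, while transcription factors of osteoclasts moved strongly. Of 19 tested genes of RANK signalling 3 rose and 1 fell, with a median log2 change of 0.09 against -0.03 over all tested genes. Tnfrsf11a, which encodes RANK, had 24.3 and 28.8 RPKM with vesicles plus RANKL, against 12.8 and 20.2 RPKM with vesicles alone (0.68 ± 0.20), a call lost without either library of vesicles plus RANKL and without replicate 1 of vesicles alone (log2 change 0.37). Nfkb2, the precursor of the noncanonical NF-kB subunit p52, changed by 0.70 ± 0.19, and Mapk14, the p38 alpha kinase, by -0.44 ± 0.09. The list counted 1 higher gene without either library of vesicles plus RANKL or without replicate 1 of vesicles alone, Nfkb2 was lost without replicate 2 of vesicles plus RANKL or replicate 1 of vesicles alone, and Mapk14 without replicate 1 of vesicles plus RANKL.

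Of 19 tested osteoclast transcription factors 10 rose and 1 fell, with a median of 0.55. Nfatc1 had 129.5 and 125 RPKM with vesicles plus RANKL, against 19.7 and 31.1 RPKM with vesicles alone (2.31 ± 0.17, adjusted p = 5.40e-06), with both RANKL libraries about equal and both others well below. Prdm1, which encodes the repressor BLIMP1 that silences inhibitors of NFATc1, had 6.74 and 4.04 RPKM with vesicles plus RANKL, against 0.349 and 0.211 RPKM with vesicles alone (2.29 ± 0.18). Fosl2 (2.20 ± 0.17) and Jdp2 (1.78 ± 0.14), members of the AP-1 family, and Myc (2.07 ± 0.33), a driver of growth and metabolism, rose as well. Fosl2 had 82.2 and 79.4 RPKM with vesicles plus RANKL, against 16.4 and 17.3 RPKM with vesicles alone, and Myc had 18.3 and 15.3 RPKM with vesicles plus RANKL, against 3.37 and 3.09 RPKM with vesicles alone. The mitochondrial coactivator gene Ppargc1b (0.86), Fos (0.82), Mitf (0.56) and Spi1 (0.51) rose less, and Jun was the 1 member to fall, with 5.11 and 4.91 RPKM with vesicles plus RANKL, against 13.0 and 13.2 RPKM with vesicles alone (-1.23 ± 0.23). These counts stayed within a factor of 1.5 when any 1 of the 4 libraries was left out.

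Since several listed factors are AP-1 proteins, the 250 bases before the gene start were searched on both strands for the AP-1 motif TGANTCA, in promoters from RefSeq on build GRCm38.p6. It is present in 11 of 129 promoters (8.53%) of genes called at least 2-fold higher and in 14 of 179 (7.82%) of those called at least 2-fold lower, against 3.99% of 7798 promoters of tested genes. Rufy4 and Prdm1, shown here as 2 strongly raised genes that hold it close to the start, carry the match in capitals from 41 and 48 bases before the start.
Rufy4, chr1:74125291-74125540, plus strand: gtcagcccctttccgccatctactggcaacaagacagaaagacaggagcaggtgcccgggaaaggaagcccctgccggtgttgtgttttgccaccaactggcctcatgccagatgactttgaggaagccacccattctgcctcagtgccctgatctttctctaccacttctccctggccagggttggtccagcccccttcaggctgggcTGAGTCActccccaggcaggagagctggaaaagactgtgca
Prdm1, chr10:44458749-44458998, minus strand: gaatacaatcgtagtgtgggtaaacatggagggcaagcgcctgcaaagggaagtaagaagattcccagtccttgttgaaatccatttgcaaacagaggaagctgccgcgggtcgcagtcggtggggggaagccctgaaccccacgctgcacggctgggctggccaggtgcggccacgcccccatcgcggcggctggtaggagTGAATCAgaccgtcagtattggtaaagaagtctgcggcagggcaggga
A match describes letters in a window and does not show binding.

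The brakes of osteoclast formation did not move as 1 group. Of 16 tested 6 fell and 2 rose, with a median of 0.03, against 12.9% lower and 9.05% higher over all tested genes. The count of 2 higher is near that share and is not read as a result about the brakes. Irf8, a transcription factor that holds macrophage identity and opposes NFATc1, had 2.57 and 1.27 RPKM with vesicles plus RANKL, against 9.88 and 7.76 RPKM with vesicles alone (-1.78 ± 0.26). The count of lower brakes was 3 without replicate 2 of vesicles plus RANKL or replicate 1 of vesicles alone. Rbpj, the Notch effector that restrains osteoclast formation, changed by -0.92 ± 0.12, and Nr4a1, an orphan nuclear receptor, by 0.82 ± 0.14.

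Most tested genes of acid secretion rose. Of 11 tested genes of acid and ion transport 10 rose and 0 fell, with a median of 0.85, and of 18 V-ATPase subunits 13 rose and 0 fell, with a median of 0.74. Car2, carbonic anhydrase 2, which makes the protons, had 65.3 and 51.0 RPKM with vesicles plus RANKL, against 22.6 and 16.2 RPKM with vesicles alone (1.55 ± 0.26). Slc4a2, the chloride-bicarbonate exchanger, had 22.8 and 18.8 RPKM with vesicles plus RANKL, against 7.18 and 7.23 RPKM with vesicles alone (1.40 ± 0.18), and Clcn7, the chloride channel of the resorption patch, had 20.1 and 13.8 RPKM with vesicles plus RANKL, against 8.43 and 7.03 RPKM with vesicles alone (1.02 ± 0.23). Slc37a2, a sugar-phosphate transporter, had 94.3 and 68.3 RPKM with vesicles plus RANKL, against 19.6 and 14.6 RPKM with vesicles alone (2.18 ± 0.29). In each of these 4 genes replicate 1 with RANKL was the highest library and no library of the other group reached either RANKL value.

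Within the pump, ubiquitous subunits rose along with the osteoclast one. Atp6v1b2, the catalytic-sector B2 subunit, had 130.1 and 113 RPKM with vesicles plus RANKL, against 33.7 and 33.8 RPKM with vesicles alone (1.82 ± 0.23), and Atp6ap2, an accessory subunit, had 101 and 97.1 RPKM with vesicles plus RANKL, against 40.7 and 40.9 RPKM with vesicles alone (1.26 ± 0.15). Tcirg1, the a3 subunit that places the pump in the bone-facing membrane, changed by 0.58 ± 0.18. The a2 subunit gene Atp6v0a2 (0.17) did not pass, nor did Atp6v0d1 (0.15), the ubiquitous counterpart of Atp6v0d2. Replicate 1 of vesicles plus RANKL weighs on both lists, since without it 4 of 11 and 6 of 18 genes passed, with 0 lower in either, and Clcn7 and Tcirg1 were among the calls lost. Tcirg1 was also lost without replicate 2 of vesicles alone.

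The list of resorption enzymes and proteases split. Of its 11 tested members 4 rose, the phosphatase gene Acp5 and the protease genes Ctsk, Mmp9 and Mmp14, and 5 fell. The falling members were macrophage cathepsins and the urokinase receptor: Ctsl had 172 and 132 RPKM with vesicles plus RANKL, against 442 and 349 RPKM with vesicles alone (-1.38 ± 0.18), Ctsb changed by -0.76 ± 0.22, Ctss by -0.71 ± 0.21, Ctsz by -0.56 ± 0.15 and Plaur by -1.0 ± 0.21. Thus Ctsk, below Ctsl in both libraries with vesicles alone, was above it in both libraries with RANKL. The number of lower members was 2, with Ctsb, Ctss and Ctsz lost, without replicate 2 of vesicles plus RANKL or replicate 1 of vesicles alone, and 3 with median-ratio scaling. Most other lysosomal genes moved little: of 22 tested lysosomal hydrolases and membrane proteins 2 rose and 1 fell, with a median of 0.11; 1 rose without replicate 1 of vesicles plus RANKL, and 3 fell without replicate 2 of vesicles alone.

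Attachment and fusion genes rose in part. Of 19 tested genes of attachment and the actin ring 8 rose and 1 fell, with a median of 0.23. Src, the kinase needed for the ruffled border, had 22.2 and 15.7 RPKM with vesicles plus RANKL, against 2.99 and 2.57 RPKM with vesicles alone (2.38 ± 0.25). Itgb3, the vitronectin receptor beta chain, reached only 1.48 and 1.02 RPKM with vesicles plus RANKL, against 0.123 and 0.0179 RPKM with vesicles alone (1.07 ± 0.16), while its partner Itgav had 36.4 and 31.7 RPKM with vesicles plus RANKL, against 9.98 and 11.9 RPKM with vesicles alone (1.56 ± 0.22). Actn1 (1.15), Vcl (1.11) and Gsn (1.11), which encode actin-binding proteins, rose too. The leukocyte integrin chain gene Itgam was the 1 to fall (-0.71 ± 0.22), a call lost without either library of vesicles plus RANKL, without replicate 1 of vesicles alone and under median-ratio scaling. Of 13 tested fusion genes 6 rose and 3 fell; beside those named above, Mst1r, the receptor of macrophage-stimulating protein, had 3.29 and 2.07 RPKM with vesicles plus RANKL, against 0.0207 and 0.0316 RPKM with vesicles alone (1.82 ± 0.19), and the tetraspanin gene Cd81, a marker of vesicles and a restraint on fusion, changed by -0.64 ± 0.09. The number of lower fusion genes was 1 without replicate 2 of vesicles plus RANKL or replicate 1 of vesicles alone and under median-ratio scaling. Calcr, the calcitonin receptor of mature osteoclasts, stayed under the filter, at 0.0781 and 0.133 RPKM with vesicles plus RANKL and at 0 in both libraries with vesicles alone.

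Costimulation and outgoing signals were mixed. Of 16 tested genes of ITAM-coupled costimulation 5 rose and 3 fell, with a median of -0.08. Over all tested genes 9.05% were higher and 12.9% lower, so the lower count is not far from that of any list. A fit of the 4 libraries alone called 1 member higher and 1 lower. Beside Oscar, the kinase gene Btk changed by 0.40 ± 0.10, and Trem2, an ITAM-coupled receptor, by -0.50 ± 0.13. Leaving out single libraries gave 1 to 3 higher and 0 to 4 lower members, and both calls were lost without replicate 2 of vesicles plus RANKL or replicate 1 of vesicles alone. Of 6 tested genes of signals sent by osteoclasts 3 rose and 3 fell. Pdgfb, a growth factor that recruits vessels and osteoblast precursors, had 34.7 and 32.7 RPKM with vesicles plus RANKL, against 6.67 and 7.87 RPKM with vesicles alone (2.07 ± 0.24), and Sema4d, a semaphorin that restrains osteoblasts, changed by 0.85 ± 0.15. Igf1, a growth factor of macrophages and bone, had 1.37 and 0.700 RPKM with vesicles plus RANKL, against 9.59 and 6.94 RPKM with vesicles alone (-2.19 ± 0.28), and Cxcl16 changed by -1.92 ± 0.24.

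**Figure D2:**
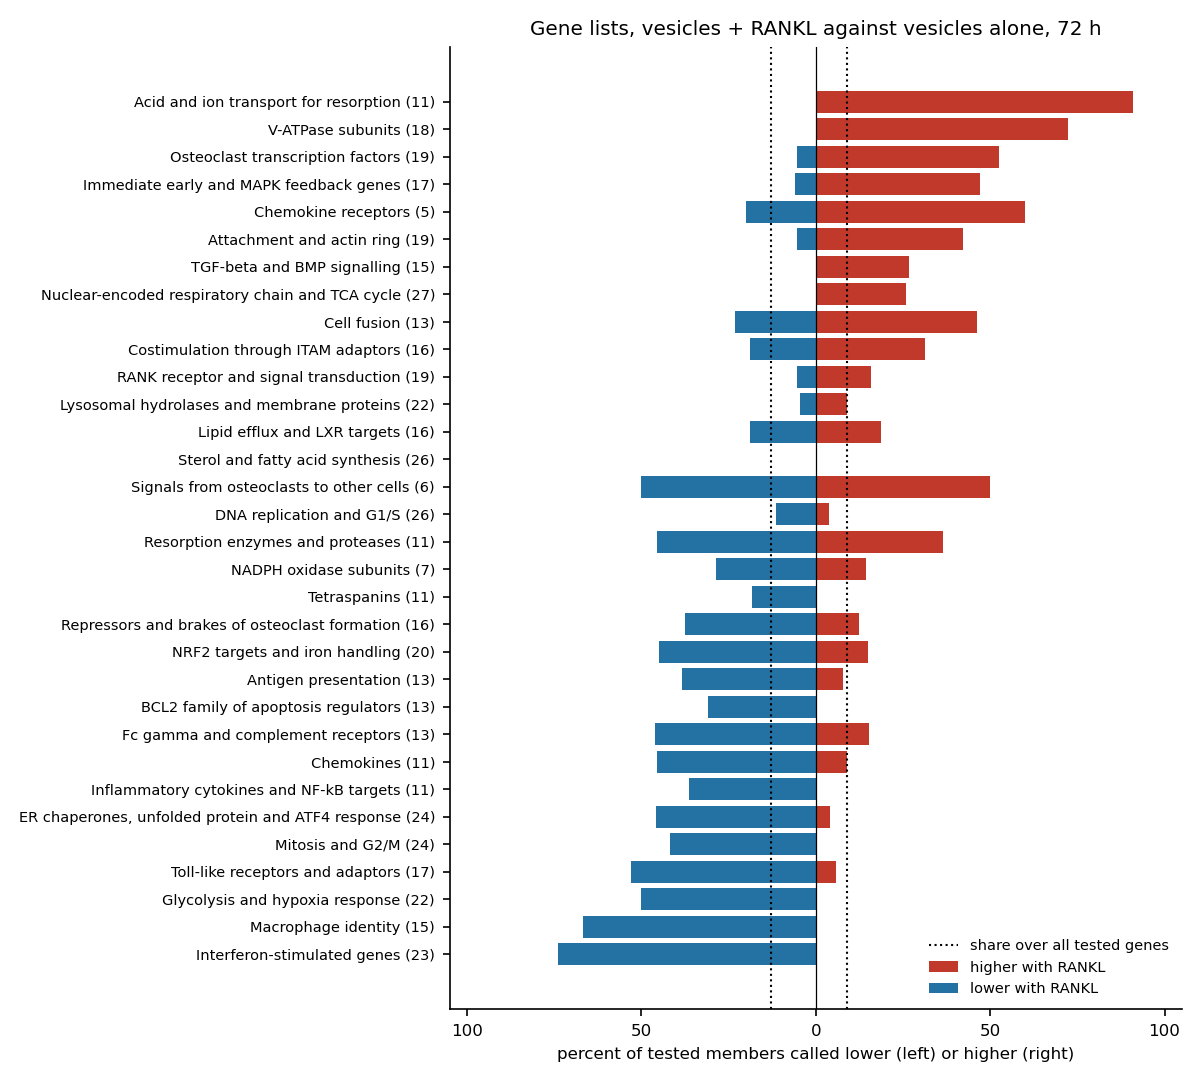
Percent of the tested members of each list called higher (red, right) or lower (blue, left) with vesicles plus RANKL against vesicles alone at 72 h, with the number tested in brackets; dotted lines mark the shares over all tested genes, 9.05% higher and 12.9% lower. Lists with fewer than 5 tested members, such as MS4A proteins, are not drawn. Acid transport has 10 of 11 members higher and interferon-stimulated genes 17 of 23 lower.

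Macrophage genes fell in a graded way. Of 15 tested genes of macrophage identity 10 fell and 0 rose, with a median of -0.83; in bulk RNA, fewer cells of a kind and less RNA per cell cannot be told apart. Cd14, the endotoxin coreceptor, had 65.3 and 55.6 RPKM with vesicles plus RANKL, against 323 and 289.6 RPKM with vesicles alone (-2.33 ± 0.22). Cx3cr1, the fractalkine receptor, had 16.5 and 12.5 RPKM with vesicles plus RANKL, against 72.5 and 79.2 RPKM with vesicles alone (-2.32 ± 0.28). Both genes were lower in both RANKL libraries by a wide margin. The scavenger receptor genes Msr1 (-0.83) and Cd36 (-0.88) and Adgre1 (-0.73), which encodes F4/80, fell less. The growth factor receptor genes Csf1r (-0.08) and Csf2ra (-0.27) and the glycoprotein gene Cd68 (0.03) did not pass. The list counted fewer lower genes when any 1 of the 4 libraries was left out. Adgre1 was lost without replicate 2 of vesicles plus RANKL or replicate 1 of vesicles alone, and its log2 change lay between -0.91 and -0.54 over all alternatives. Cd36 was lost without replicate 1 of vesicles plus RANKL or replicate 2 of vesicles alone, with changes between -1.28 and -0.48.

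Receptors of innate recognition followed. Of 17 tested Toll-like receptors and adaptors 9 fell and 1 rose, with a median of -0.57. Tlr2 had 32.5 and 29.7 RPKM with vesicles plus RANKL, against 73.9 and 70.8 RPKM with vesicles alone (-1.19 ± 0.15), and Tlr13, a sensor of bacterial ribosomal RNA in mice, had 5.56 and 3.89 RPKM with vesicles plus RANKL, against 26.6 and 20.0 RPKM with vesicles alone (-2.09 ± 0.32). Neither gene showed overlap between the treatments. Tlr4 changed by -0.97 ± 0.15, Tlr7 by -1.27 ± 0.19 and Tlr8 by -1.63 ± 0.28, while Tlr9 (-0.36) did not pass. The 1 rise was Cd180, a Toll-like receptor homolog (0.34), lost without replicate 1 or replicate 2 of vesicles plus RANKL or replicate 2 of vesicles alone.

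Of 13 tested Fc and complement receptor genes 6 fell and 2 rose, against 12.9% lower and 9.05% higher over all tested genes. Fcgr3 changed by -2.38 ± 0.45, Fcgr2b by -1.52 ± 0.27, and the anaphylatoxin receptor genes C3ar1 by -2.14 ± 0.27 and C5ar1 by -2.14 ± 0.40. Fcgr4, a receptor for IgG2 antibodies, went the other way, with 15.2 and 11.6 RPKM with vesicles plus RANKL, against 9.61 and 5.76 RPKM with vesicles alone (0.76 ± 0.23), as did Itgax, the CD11c integrin chain; Fcgr4 was lost without replicate 1 of vesicles plus RANKL or replicate 2 of vesicles alone. All 3 tested MS4A genes fell, Ms4a6c with 10.0 and 7.87 RPKM with vesicles plus RANKL, against 42.8 and 42.7 RPKM with vesicles alone (-2.15 ± 0.23); reads may be shared among these paralogs. Of 11 tested chemokines 5 fell, Cxcl16 most, and 1 rose: Ccl9, an osteoclast chemokine whose receptor is CCR1, had 310.4 and 268 RPKM with vesicles plus RANKL, against 169.8 and 152 RPKM with vesicles alone (0.84 ± 0.16). Without replicate 2 of vesicles plus RANKL or replicate 1 of vesicles alone 1 chemokine passed as lower, and 3 passed without replicate 2 of vesicles alone. Of 5 tested chemokine receptors 3 rose, Ccr1 first. Among inflammatory cytokines and targets of NF-kB 4 of 11 tested fell and 0 rose, Nfkbiz by -1.07 ± 0.24, Ptgs2 by -1.23 ± 0.15 and Clec4e by -2.29 ± 0.27; 2 passed, without Nfkbiz, when replicate 2 of vesicles plus RANKL or replicate 1 of vesicles alone was left out.

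Most interferon-stimulated genes fell. Of 23 tested 17 fell and 0 rose, with a median of -0.89, against 12.9% of all tested genes lower. The libraries of both treatments did not overlap in any of the 23, against 54.3% of all tested genes without overlap. Oas1a, a sensor of double-stranded RNA, had 11.6 and 10.5 RPKM with vesicles plus RANKL, against 26.6 and 28.8 RPKM with vesicles alone (-1.25 ± 0.14, adjusted p = 7.96e-05). Bst2, tetherin, had 19.9 and 21.4 RPKM with vesicles plus RANKL, against 39.7 and 42.9 RPKM with vesicles alone (-0.97 ± 0.11). Irf7, a transcription factor of this response, had 2.58 and 1.50 RPKM with vesicles plus RANKL, against 8.39 and 5.91 RPKM with vesicles alone (-1.43 ± 0.27), and its partner in interferon signalling Irf9 changed by -0.89 ± 0.12. The replicates of these 4 genes lay closer to each other than to the other treatment. Of 13 tested genes of antigen presentation 5 fell and Cd80, a costimulatory ligand, rose (1.51 ± 0.21); Psmb8 of the immunoproteasome had 7.30 and 7.76 RPKM with vesicles plus RANKL, against 13.2 and 17.5 RPKM with vesicles alone (-0.93 ± 0.13), and without replicate 2 of vesicles plus RANKL 3 of 13 passed as lower, and without replicate 1 of vesicles alone 2 rose.

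The interferon-stimulated response element, searched on both strands as GAAA followed after any 2 bases by GAAA in the same windows, is in 8 of 17 promoters (47.1%) of the tested interferon-stimulated genes, against 2.63% of promoters of tested genes. Oas1a and Bst2 are shown as the listed members described above that hold it, with matches in capitals, where overlapping ones run together; those of Oas1a begin 20 and 14 bases before the start and those of Bst2 130 and 124 bases before it.
Oas1a, chr5:120907526-120907775, minus strand: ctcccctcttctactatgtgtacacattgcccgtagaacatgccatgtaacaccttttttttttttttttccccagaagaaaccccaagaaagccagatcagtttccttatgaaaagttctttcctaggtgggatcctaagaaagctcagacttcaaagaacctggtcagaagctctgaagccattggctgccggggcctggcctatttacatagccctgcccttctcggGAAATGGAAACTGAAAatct
Bst2, chr8:71537473-71537722, minus strand: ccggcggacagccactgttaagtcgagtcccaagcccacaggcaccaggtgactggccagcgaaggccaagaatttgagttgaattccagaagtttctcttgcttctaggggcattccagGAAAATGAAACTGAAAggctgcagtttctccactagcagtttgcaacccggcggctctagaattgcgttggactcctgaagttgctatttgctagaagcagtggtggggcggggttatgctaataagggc
For comparison, the share is 4.65% among promoters of genes called at least 2-fold higher and 6.70% among those called at least 2-fold lower.

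Genes of the amino acid response were lower with RANKL. Of 24 tested genes of ER chaperones, the unfolded protein response and the ATF4 response 11 fell and 1 rose, with a median of -0.58. The falling members were largely those known as ATF4 targets. Asns, asparagine synthetase, had 25.1 and 25.7 RPKM with vesicles plus RANKL, against 92.6 and 54.3 RPKM with vesicles alone (-1.45 ± 0.26). Phgdh, the first enzyme of serine synthesis, had 32.0 and 43.4 RPKM with vesicles plus RANKL, against 106 and 79.1 RPKM with vesicles alone (-1.27 ± 0.20), and Slc7a5, a large neutral amino acid transporter, had 11.1 and 13.1 RPKM with vesicles plus RANKL, against 26.9 and 23.8 RPKM with vesicles alone (-1.01 ± 0.15). Ddit3, which encodes CHOP, changed by -1.76 ± 0.36, and Atf4 itself by -0.92 ± 0.17. In Asns, Phgdh and Slc7a5 replicate 1 was the higher of the libraries with vesicles alone. Chaperone genes did not pass, among them Hspa5 (-0.22) and Hsp90b1 (-0.32). The list counted 9 to 15 lower genes when single libraries were left out, and its 1 rise, Edem1 (0.39), was lost without either library of vesicles plus RANKL and without replicate 1 of vesicles alone.

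The C/EBP-ATF response element, searched as TGATGNAA on both strands, is in 4 of 23 promoters (17.4%) of this list and in 17 of 179 (9.50%) of genes called at least 2-fold lower, against 1 of 129 (0.775%) of genes called at least 2-fold higher and 1.87% of promoters of tested genes. Asns, Atf3 and Pck2, which encodes mitochondrial PEP carboxykinase (3.33 and 2.73 RPKM with vesicles plus RANKL, against 20.5 and 8.85 RPKM with vesicles alone, -1.86 ± 0.36), are shown as lowered genes that hold it, with the match in capitals from 23, 110 and 103 bases before the start.
Asns, chr6:7693210-7693459, minus strand: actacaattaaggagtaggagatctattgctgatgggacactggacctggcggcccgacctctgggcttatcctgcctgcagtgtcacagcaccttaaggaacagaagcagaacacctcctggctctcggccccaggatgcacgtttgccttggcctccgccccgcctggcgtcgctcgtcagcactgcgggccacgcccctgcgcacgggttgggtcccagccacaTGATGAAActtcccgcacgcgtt
Atf3, chr1:191183334-191183583, minus strand: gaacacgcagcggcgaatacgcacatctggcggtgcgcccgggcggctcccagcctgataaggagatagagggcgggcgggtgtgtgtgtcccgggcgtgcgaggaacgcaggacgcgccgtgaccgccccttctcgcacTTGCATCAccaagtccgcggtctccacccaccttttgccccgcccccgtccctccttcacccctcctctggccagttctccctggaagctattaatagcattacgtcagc
Pck2, chr14:55540016-55540265, plus strand: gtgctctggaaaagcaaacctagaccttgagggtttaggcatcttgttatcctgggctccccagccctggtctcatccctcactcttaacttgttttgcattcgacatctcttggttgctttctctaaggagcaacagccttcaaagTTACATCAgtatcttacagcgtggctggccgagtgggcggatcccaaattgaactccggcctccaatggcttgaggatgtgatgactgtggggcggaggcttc
As above, the letters alone do not show that a factor was bound.

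Genes of glycolysis fell in part. Of 22 tested genes of glycolysis and the hypoxia response 11 fell and 0 rose, with a median of -0.60. Pgk1 had 397 and 347 RPKM with vesicles plus RANKL, against 703 and 569 RPKM with vesicles alone (-0.77 ± 0.13), Pkm 1562 and 1478 RPKM with vesicles plus RANKL, against 2412 and 2244 RPKM with vesicles alone (-0.61 ± 0.11), and the triosephosphate isomerase gene Tpi1 changed by -0.58 ± 0.11. Ero1l, an oxidase of the ER that hypoxia induces, changed most, with 33.0 and 23.8 RPKM with vesicles plus RANKL, against 145 and 83.2 RPKM with vesicles alone (-1.94 ± 0.44). Between 5 and 7 genes of the list passed without replicate 1 or 2 of vesicles plus RANKL or replicate 1 of vesicles alone, and Ero1l was lost without replicate 2 of the first or replicate 1 of the second. Of 27 nuclear-encoded genes of the respiratory chain and TCA cycle 7 rose and 0 fell, with a median of 0.36, among them Sdha (0.52 ± 0.10). The count was 0 in a fit of the 4 libraries alone, 11 with quantile normalization, 15 with median-ratio scaling, 14 without replicate 2 of vesicles alone, 4 without replicate 2 of vesicles plus RANKL and 4 without replicate 1 of vesicles alone. Of 15 genes of mitochondrial DNA 6 rose and 0 fell, and 1 to 3 rose without replicate 1 or 2 of vesicles plus RANKL or replicate 2 of vesicles alone.

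Iron and redox genes moved in both directions, most of those called downward. Of 20 tested NRF2 targets and iron genes 9 fell and 3 rose, against 12.9% lower and 9.05% higher over all tested genes. The higher count is not far from its share. Ferritin genes fell, Fth1 with 1814 and 1463 RPKM with vesicles plus RANKL, against 3721 and 2772 RPKM with vesicles alone (-0.98 ± 0.17) and Ftl1 with 1362 and 1251 RPKM with vesicles plus RANKL, against 2273 and 2217 RPKM with vesicles alone (-0.78 ± 0.13), as did Hmox1, heme oxygenase (-0.98 ± 0.19). Tfrc, the transferrin receptor that brings iron in, had 53.9 and 45.1 RPKM with vesicles plus RANKL, against 22.8 and 27.0 RPKM with vesicles alone (0.96 ± 0.23), a call lost without replicate 1 of either treatment. Gstt1, a glutathione transferase, stood apart with 5.00 and 9.49 RPKM with vesicles plus RANKL, against 0.305 and 0.207 RPKM with vesicles alone (2.66 ± 0.37). The list counted 1 higher and 5 lower genes without replicate 1 of vesicles plus RANKL, 5 lower without replicate 2, and 1 higher without replicate 1 of vesicles alone. Of 7 tested NADPH oxidase genes Cybb and Ncf1 (-0.69) fell and Rac2 (0.52) rose, the last lost without replicate 1 of vesicles plus RANKL.

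Genes of mitosis shifted slightly, while those of DNA replication passed no more often than all tested genes (9.05% higher, 12.9% lower). Of 24 tested genes of mitosis 10 fell and 0 rose, with a median of -0.33, Anln, anillin, most, with 15.1 and 20.8 RPKM with vesicles plus RANKL, against 27.6 and 31.8 RPKM with vesicles alone (-0.71 ± 0.13). Mki67, a general marker of cycling, had 91.7 and 119.5 RPKM with vesicles plus RANKL, against 112 and 142 RPKM with vesicles alone (-0.27 ± 0.14) and did not pass. The mitosis count was 0 in a fit of the 4 libraries alone, 1 without replicate 1 and 12 without replicate 2 of vesicles plus RANKL, and 14 without replicate 1 and 3 without replicate 2 of vesicles alone. Of 26 genes of DNA replication 1 rose, the cell-cycle inhibitor gene Cdkn1b (0.47 ± 0.15, lost whichever of the 4 libraries was left out), and 3 fell; leaving out replicate 1 of vesicles alone gave 14 lower, and leaving out replicate 1 of vesicles plus RANKL or replicate 2 of vesicles alone gave 0 lower. None of 26 sterol and fatty acid genes passed, but 4 rose with quantile normalization, 5 with median-ratio scaling and 12 without replicate 2 of vesicles alone, with Hmgcs1 at 28.5 and 30.6 RPKM with vesicles plus RANKL, against 18.0 and 25.0 RPKM with vesicles alone.

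Smaller lists complete the account, beside shares over all tested genes of 9.05% higher and 12.9% lower. Of 13 tested BCL2 family genes 4 fell and 0 rose, with Bcl2l1, which encodes BCL-XL, at 3.65 and 3.15 RPKM with vesicles plus RANKL, against 10.4 and 6.29 RPKM with vesicles alone (-1.05 ± 0.22); 2 fell without replicate 2 of vesicles plus RANKL, and without replicate 1 of vesicles alone 3 fell and 2 rose. Of 17 immediate early and MAPK feedback genes 8 rose and 1 fell, with Spry1 (1.19 ± 0.11) and Egr2 (1.08 ± 0.19) up and Ier3 (-1.58 ± 0.26) down; 6 rose and 2 fell without replicate 2 of vesicles alone. Of 15 TGF-beta and BMP genes 4 rose, Tgfbr1 with 21.6 and 18.9 RPKM with vesicles plus RANKL, against 8.24 and 6.33 RPKM with vesicles alone (1.36 ± 0.19) and Cd109, a TGF-beta coreceptor, with 31.5 and 26.1 RPKM with vesicles plus RANKL, against 16.3 and 14.1 RPKM with vesicles alone (0.88 ± 0.16), while 2 rose without replicate 1 or replicate 2 of vesicles plus RANKL or replicate 1 of vesicles alone, with 1 lower in the second of these. Of 16 genes of lipid efflux and LXR targets 3 rose and 3 fell, and 1 rose and 2 fell without replicate 1 of vesicles plus RANKL; Apoe, apolipoprotein E, changed by 0.52 ± 0.10 and Plin2, a lipid droplet coat, by -1.02 ± 0.19. Of 11 tetraspanins 2 fell, Cd81 and Cd151 (-0.54 ± 0.11), and Cd9 (0.27) and Cd63 (0.35), used as vesicle markers, did not pass; without replicate 1 of vesicles alone Cd82 (0.50) passed as well.

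Genes moved by RANKL on top of vesicles at 48 h were mostly moved at 72 h too. At 48 h the same comparison called 988 of 10365 genes (9.53%), 410 higher (3.96%) and 578 lower (5.58%). No library is shared between the times. In fits of only the libraries compared the order of the times reversed, with 1800 calls at 48 h and 1136 at 72 h. The counts therefore do not show a broader response at 72 h. The counts below are those of the fit over all 16 libraries. Of the 410 higher genes 322 were also higher at 72 h, which is 34.3% of the 938 at 72 h and 78.5% of the 48 h list. Of the 578 lower genes 453 were also lower at 72 h, 33.8% of the 1340 at 72 h and 78.4% of the 48 h list. Higher genes of 72 h included 0 that were lower at 48 h, and lower genes of 72 h included 1 that was higher. The 48 h count was 363 to 587 when 1 of its libraries was left out.

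Counts and medians of some lists at 48 h follow, without a test between the times. The counts are those of the fit over all 16 libraries, in which fewer genes passed at 48 h than at 72 h. Of 15 macrophage identity genes 11 fell at 48 h with a median of -0.95, near the 72 h values. Acid and ion transport had 3 of 11 genes higher at 48 h with a median of 0.23, V-ATPase subunits 6 of 18 higher and 1 lower with a median of 0.41, and interferon-stimulated genes 9 of 23 lower with a median of -0.59. Mitosis genes counted 0 of 24 at 48 h, with a median of 0.09. Asns, with 41.0 and 46.2 RPKM for vesicles plus RANKL at 48 h against 38.7 and 35.5 RPKM for vesicles alone, did not pass then (log2 change 0.23).

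The difference between the times passed for 0 genes (0.0%) at a limma adjusted p under 0.05 (1069 at an unadjusted p under 0.05), so a change of the effect with time is not shown for any gene. The smallest adjusted p was 0.102, held among others by the TNF family ligand gene Tnfsf8 (difference 1.57 ± 0.25), Sema7a (1.16 ± 0.19) and Angptl2 (1.10 ± 0.18). Angptl2, a secreted angiopoietin-like protein, had 13.9 and 11.7 RPKM with vesicles plus RANKL and 5.40 and 4.93 RPKM with vesicles alone at 72 h, against 7.21 and 7.28 RPKM and 6.36 and 7.53 RPKM at 48 h. Its libraries separated by treatment at 72 h and overlapped at 48 h. The genes of smallest p were picked after their values were seen.

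**Figure D3:**
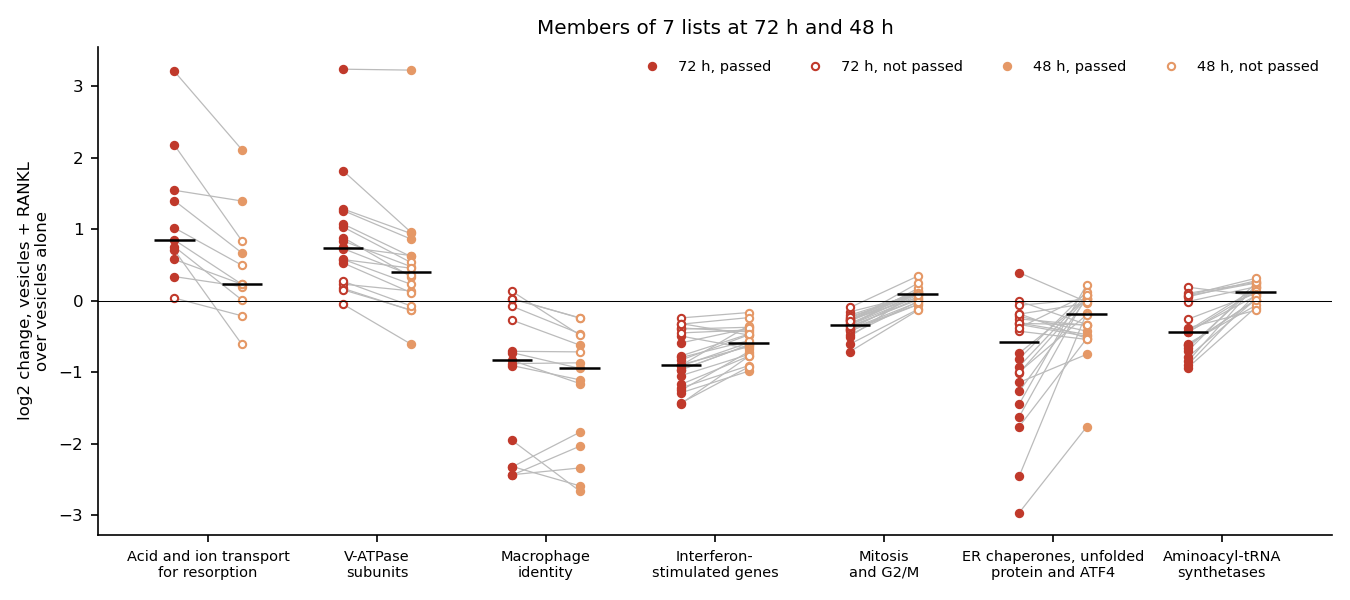
Log2 change with RANKL on top of vesicles for the tested members of 7 lists at 72 h (left of each pair, red) and 48 h (right, orange); filled points passed the test, lines join a gene and black bars are medians. The medians at 72 h and 48 h are 0.85 and 0.23 for acid and ion transport, -0.83 and -0.95 for macrophage identity, and -0.33 and 0.09 for mitosis.

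RANKL without vesicles gave a largely shared set of changes at the same time. RANKL against PBS at 72 h called 1954 genes (18.9%), 1008 higher (9.73%) and 946 lower (9.13%), with 591 of the higher genes shared (63.0% of the 938 with vesicles and 58.6% of the 1008 without) and 659 of the lower (49.2% of the 1340 and 69.7% of the 946). The 2 comparisons share no library. Opposite calls numbered 1 among the higher and 2 among the lower genes with vesicles. The count without vesicles was 738 without RANKL replicate 2 and 2854 without RANKL replicate 1, and 1194 and 1115 without replicates 1 and 2 of PBS.

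Of the differences between the effects, that of Acp5 alone passed over all genes (0.00965% of genes, log2 difference -3.41 ± 0.36, limma adjusted p = 0.00524), while 959 genes had an unadjusted p under 0.05. With vesicles Acp5 stood at 663 and 435 RPKM with RANKL and 41.5 and 34.0 RPKM without. Without vesicles it stood at 166 and 309 RPKM with RANKL and 0.642 and 0.437 RPKM with PBS. The fitted effect of RANKL was 3.80 ± 0.26 with vesicles and 7.21 ± 0.26 without them, and the highest levels of all were those of vesicles plus RANKL. The call was lost without replicate 1 of vesicles alone (difference -3.27, adjusted p = 0.0518) and in a fit of these 8 libraries alone (adjusted p = 0.199).

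Other genes had values in the same direction as Acp5 without passing. Atp6v0d2, which stood at 106 and 162 RPKM with RANKL and 1.54 and 0.779 RPKM with PBS, had a difference of -2.72 ± 0.45 (adjusted p = 0.0783). The receptor gene Cd300ld (-1.11 ± 0.17) and the calcium pump gene Atp2a3 (-1.29 ± 0.20) each had adjusted p = 0.0672. Rab15 went the other way with the same adjusted p (1.44 ± 0.22); it had 1.57 and 2.33 RPKM with RANKL and 0.142 and 0 RPKM with PBS. Ctsk, with 66.4 and 196 RPKM with RANKL and 3.71 and 2.17 RPKM with PBS, had a difference of -0.52 ± 0.70.

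**Figure D4:**
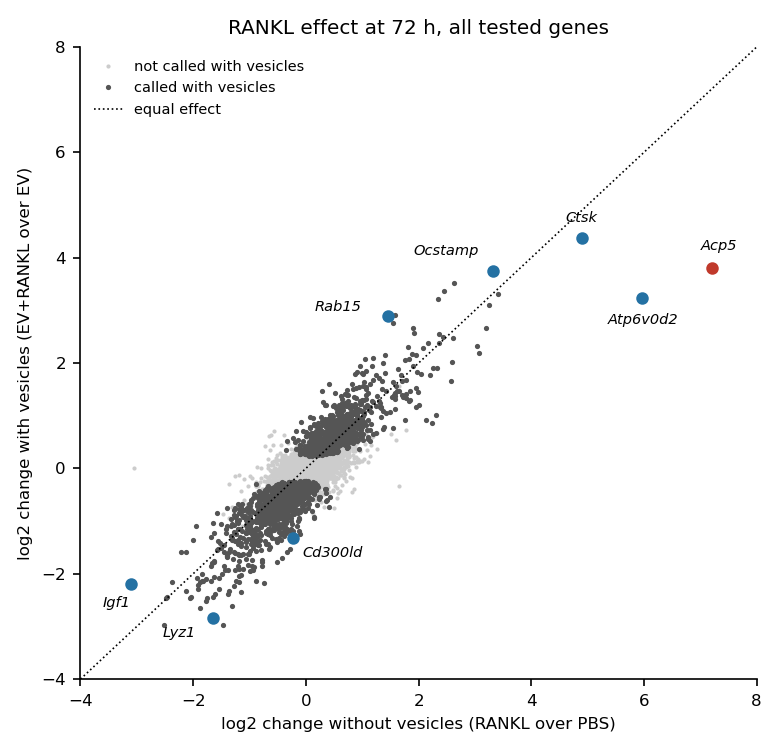
Log2 change of RPKM + 1 with RANKL at 72 h in the presence of vesicles (vertical axis) against the change in their absence (horizontal axis) for 10365 tested genes; dark points passed the test with vesicles and the dotted line marks equal effects. Acp5 (red) lies farthest below the line among the labelled genes, at 3.80 with and 7.21 without vesicles.

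Across all groups the main osteoclast genes were highest with vesicles plus RANKL at 72 h or close to it. Ocstamp and Oscar stayed near 1 RPKM or lower in all groups without RANKL. Nfatc1 had 147 and 140.5 RPKM with vesicles plus RANKL at 48 h, against 46.7 and 49.7 RPKM with vesicles alone, so its level with vesicles alone was higher at 48 h than at 72 h while that with RANKL differed little. In PBS at 72 h it had 10.8 and 11.7 RPKM. Levels of libraries from different groups are set side by side here without a test.

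**Figure D5:**
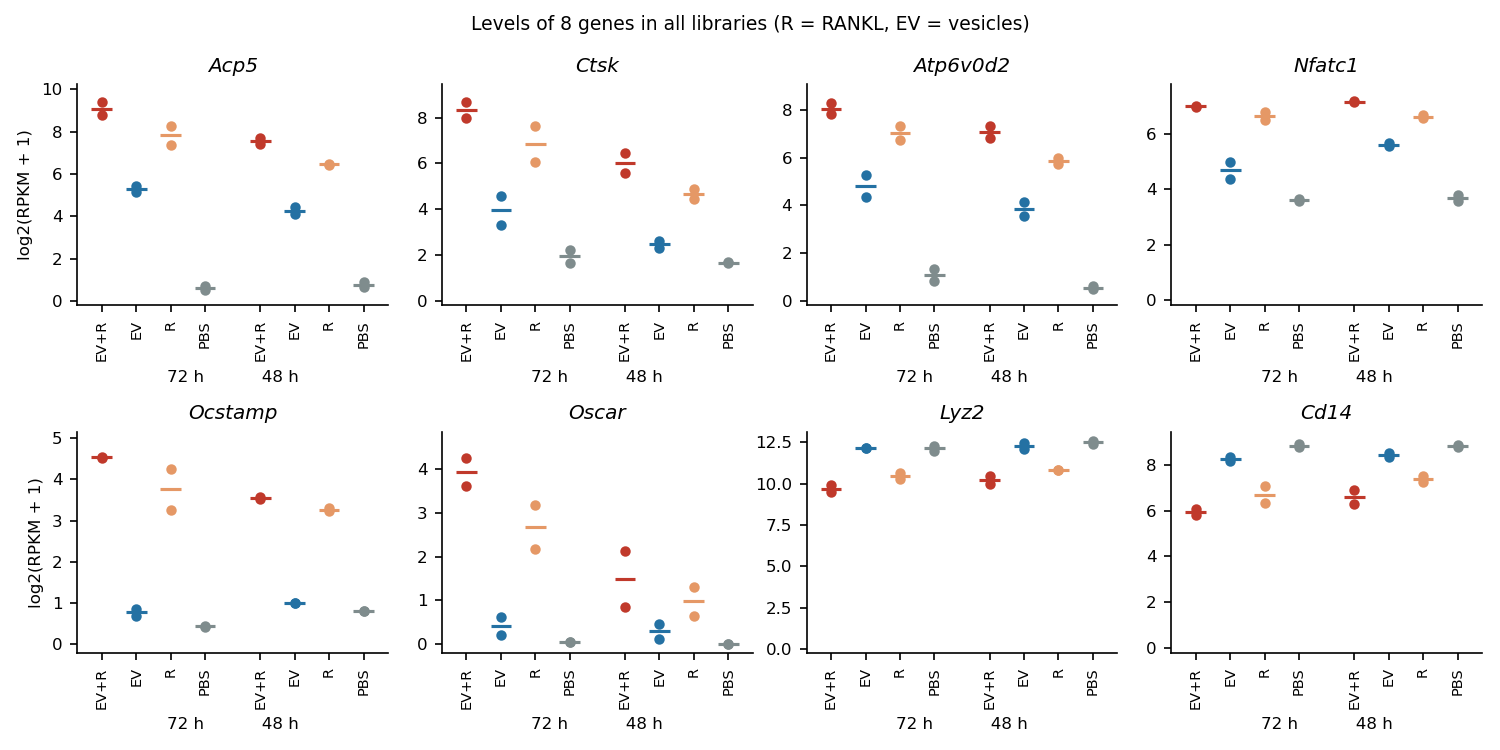
Log2(RPKM + 1) of 8 genes in all 16 libraries, with 72 h at the left and 48 h at the right of each panel; within a time the order is vesicles plus RANKL (EV+R, red), vesicles alone (EV, blue), RANKL (R, orange) and PBS (grey), points are libraries and dashes group means. Acp5, Atp6v0d2 and Nfatc1 are above PBS with vesicles alone, whereas Ocstamp and Oscar rise mainly where RANKL was given, and Lyz2 and Cd14 are lowest with vesicles plus RANKL.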

How the data were processed

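Poly(A) RNA of the 16 libraries (8 groups of 2) was sequenced after TruSeq preparation, per the labels' protocols. FastQC, HISAT2 and Partek are named in the submitters' processing notes, along with the human builds GRCh38 and hg38; these sources do not name the mouse build, annotation, strand setting or normalization. The deposited table holds log2 values for 20490 mouse gene symbols, of which 17545 (85.6%) matched RefSeq names. Its scale is not stated and was inferred: after reversal with base 2 and subtraction of 1, 73.5% of 7666 ratios of low values that lie near 2 were within 0.5% of it, against 27.3% of such ratios with base e and 2.48% with base 10. The resulting values behave as reads scaled to transcript length and library size, are called RPKM here and may differ from RPKM by a constant. Depth was estimated from the steps of 2048 single-exon genes at 18.4 M to 20.0 M reads per library, and intervals from it would cover counting error only. Of the columns for vesicles plus RANKL at 48 h, 1 lacks the letter for RANKL in its name; it was placed in that group because no other group lacked a column, and is called replicate 2.

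Genes with 1 RPKM or more in at least 2 of the 16 libraries (10365) were fitted with limma 3.58.1 in R 4.3.3 on log2(RPKM + 1), with a variance trend and 8 group means over all 16 libraries, so that groups share an estimate of the spread; p-values were adjusted by Benjamini-Hochberg over these genes, with calls at 0.05. The added 1 understates changes of low genes. The fit was tested on simulated data for vesicles plus RANKL against vesicles alone at 72 h (10365 genes). Calls were made for 43.3% of 67 genes with a log2 change of 0.5 and for 89.6% of 67 with a change of 1. For a change of 2 they were made for 98.5% of 66, beside 4 false calls in all. The simulated noise was normal with the same spread of a gene in every group, and only genes well above the filter were changed. In the data, replicates differed more at 72 h than at 48 h in every treatment. The simulation therefore describes the fit under its own assumption and does not measure false calls in these data.

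Named genes were the 12 largest rises and 12 largest falls among calls whose higher group averaged at least 5 RPKM and whose libraries did not overlap, the 3 genes per list with the lowest adjusted p, and a few set ones; other named genes (72) were chosen after their values were seen. A few genes picked by these rules were left unreported. In all, 36 lists hold 636 genes, of which 605 matched the table and 512 were tested. The members and lists were chosen with earlier results of these data known. Gene names turned into dates (24) were left as they stand. Alternatives changed the pseudocount, filter, trend, scaling, libraries in the fit and a replicate block, or left out single libraries. Promoters are RefSeq sequences of build GRCm38.p6.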

Additional observations from a re-analysis of the deposited data

Results flagged for a closer look

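Acp5 was the gene whose response to RANKL at 72 h differed between cells with and without vesicles by a test of the difference itself, with a log2 difference of -3.41 ± 0.36 (limma adjusted p = 0.00524). Both effects were upward in both libraries, 3.80 ± 0.26 with vesicles and 7.21 ± 0.26 without them. The difference was negative in every alternative run, between -4.65 with a pseudocount of 0.1 and -2.96 without replicate 2 of RANKL, and its adjusted p ranged over these between 0.000268 and 0.199.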

How the results depend on the processing

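Of 177 named genes called at 72 h, 130 kept their call in every alternative run and 47 lost it in at least 1, and none of the 177 changed direction. Fits of only the libraries compared gave 1136 calls for vesicles plus RANKL against vesicles alone at 72 h and 1800 at 48 h. RANKL against PBS at 72 h had 412. The difference with minus without vesicles had 0, where Acp5 had -3.41 and limma adjusted p = 0.199. Fewer libraries then estimate the spread, and only those of the groups compared. The median absolute log2 difference between replicates was 0.114 with vesicles plus RANKL and 0.182 with vesicles alone at 72 h. At 48 h it was 0.092 and 0.0774. The fit over all 16 libraries takes 1 spread per gene for both times. In the 72 h fit of 4 libraries, 0 of 27 respiratory chain genes and 2 of 15 genes of mitochondrial DNA were higher. Also higher were 1 of 16 ITAM genes and 1 of 19 RANK signalling genes. Lower were 0 of 24 mitosis genes, 4 of 20 NRF2 and iron genes and 1 of 13 BCL2 family genes. Without a filter on low values the difference between the times had 24 calls and the difference with minus without vesicles 32, and quantile normalization gave 2 for the second. The cause of these changes was not tested. Scaling moved the median change of all genes by less than 0.1 on the log2 scale. When 1 library was left out, calls numbered 1245 to 2282 for vesicles plus RANKL against vesicles alone at 72 h, 363 to 587 at 48 h, 738 to 2854 for RANKL against PBS, 0 to 6 for the difference between the times, with 6 without replicate 2 of vesicles alone at 72 h, and 0 to 64 for the difference with minus without vesicles, with 64 without RANKL replicate 1 and 0 without replicate 1 of vesicles alone; Acp5 ranged between -3.85 and -2.96. A group left with 1 library is assumed to vary like the others.

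Of the named genes, 5 that had not passed changed sign when 1 library was left out. Over these fits the log2 change of Cd83 lay between -0.3416 and 0.7212, that of Csf1r between -0.1603 and 0.006306, that of Cd9 between -0.01513 and 0.5542, that of Atp6v0d1 between -0.05804 and 0.3634 and that of Cd68 between -0.1328 and 0.1954. Of 816 counts of list members under an alternative, 125 moved by more than 1.5 times, as given beside the lists where 1 library decided them.

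Replicate numbers in the labels are not stated to pair samples. Deviations of same-numbered libraries correlated between -0.039 and 0.529 over 21 pairs of groups, with 11 above 0.1, so the numbers do not establish a pairing over the study. The highest value was that of vesicles plus RANKL with vesicles alone at 72 h, and PBS at 72 h had 0.398 and 0.459 with these groups, so same-numbered libraries deviated together in this comparison. With a replicate block, in which the 48 h library without the RANKL letter is left out, calls numbered 2441 at 72 h, 710 at 48 h, 2098 for RANKL against PBS, 0 for the difference between the times and 6 for the difference with minus without vesicles. At the estimated depth, differences between values near 0.153 RPKM are not detectable, since 3 reads per kilobase are worth about that much.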

Other observations

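Some gene families that had been put together after the values were seen also moved with RANKL on top of vesicles at 72 h, and they are given as counts without a test of the list. Aminoacyl-tRNA synthetases, which load amino acids onto transfer RNA, were lower for 13 of 20 tested genes and higher for 0 (median log2 change -0.44), against 0 of 20 in either direction at 48 h (median 0.12) and 8 of 20 lower for RANKL against PBS at 72 h. Nars had 83.6 and 81.4 RPKM with vesicles plus RANKL, against 182 and 130.4 RPKM with vesicles alone (-0.89 ± 0.17), and Gars had 53.2 and 54.5 RPKM with vesicles plus RANKL, against 94.8 and 77.1 RPKM with vesicles alone (-0.66 ± 0.13). Replicate 1 was the higher library with vesicles alone in both. Of 12 promoters found for this family 3 (25.0%) hold TGATGNAA, the C/EBP-ATF response element, against 1.87% of promoters of tested genes. Genes of serine and one-carbon metabolism were lower for 10 of 16 tested at 72 h and for 0 of 16 at 48 h. Without replicate 2 of vesicles alone 1 gene of the first family and 2 of the second passed as higher. Mthfd2, a mitochondrial folate enzyme, had 17.8 and 19.8 RPKM with vesicles plus RANKL, against 59.0 and 46.2 RPKM with vesicles alone (-1.43 ± 0.20), and Mthfd1l, another enzyme of that pathway, had 11.7 and 15.6 RPKM with vesicles plus RANKL, against 33.2 and 27.0 RPKM with vesicles alone (-1.09 ± 0.17). The difference between the times was -1.66 ± 0.29 for Mthfd2 and did not pass (limma adjusted p = 0.108).

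Other families held members called in both directions, beside shares over all tested genes of 9.05% higher and 12.9% lower. A count near these shares is not read as a result about a family, as for the lower genes of calcium handling. Of 4 tested sialic acid-binding lectins 3 fell, Cd33 with 11.4 and 8.19 RPKM with vesicles plus RANKL, against 65.5 and 33.8 RPKM with vesicles alone (-2.17 ± 0.40), and 1 rose, Siglec15, a receptor known from osteoclasts, with 8.90 and 7.31 RPKM with vesicles plus RANKL, against 0.448 and 0.411 RPKM with vesicles alone (2.67 ± 0.29). Of 11 C-type lectin receptors 5 fell, Clec4d by -2.29 ± 0.16, and 2 rose, Clec4a2 with 22.9 and 23.2 RPKM with vesicles plus RANKL, against 8.73 and 8.09 RPKM with vesicles alone (1.36 ± 0.23), though reads may be shared among the Clec4a paralogs; 1 rose without replicate 1 of vesicles plus RANKL. Of 13 semaphorins and their receptors 6 rose and 3 fell. Sema7a had 2.52 and 1.91 RPKM with vesicles plus RANKL, against 0.0314 and 0.0160 RPKM with vesicles alone (1.65 ± 0.13), Plxnd1 had 38.4 and 32.8 RPKM with vesicles plus RANKL, against 14.5 and 10.1 RPKM with vesicles alone (1.47 ± 0.21), and Nrp1 had 0.302 and 0.274 RPKM with vesicles plus RANKL, against 1.92 and 1.40 RPKM with vesicles alone (-1.04 ± 0.13) while Nrp2 had 98.5 and 103 RPKM with vesicles plus RANKL, against 60.7 and 59.6 RPKM with vesicles alone (0.73 ± 0.08). Of 17 genes of calcineurin feedback and calcium handling 7 rose and 2 fell, while 5 or 6 rose and 1 fell when any 1 of the 4 libraries was left out. Rcan1, a calcineurin inhibitor that is itself an NFAT target, had 50.2 and 50.2 RPKM with vesicles plus RANKL, against 16.6 and 19.9 RPKM with vesicles alone (1.42 ± 0.18), and Atp2a3, a calcium pump of the endoplasmic reticulum, had 26.2 and 25.5 RPKM with vesicles plus RANKL, against 12.5 and 12.0 RPKM with vesicles alone (1.02 ± 0.14), while Atp2b1, a calcium pump of the plasma membrane, changed by -0.81 ± 0.17. Of 20 genes of lysosome traffic 8 rose and 4 fell, and 5 rose without replicate 1 of vesicles plus RANKL; Dmxl1, a V-ATPase assembly partner, had 12.9 and 15.1 RPKM with vesicles plus RANKL, against 3.44 and 3.92 RPKM with vesicles alone (1.68 ± 0.18), and Rab3il1 changed by -1.91 ± 0.15. None of 77 tested cytosolic ribosomal protein genes passed (median 0.03), and 5 passed as higher with quantile normalization.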
